A study of Mus musculus with 3 samples.

Results

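The genes described here encode the oxidative phosphorylation machinery of islet cells. They were taken by symbol: every row of the count tables starting with mt-, Nduf, Uqcr, Cox4, Cox5, Cox6, Cox7, Cox8 or Atp5, together with *Cyc1*, *Cycs* and *Sdha* to *Sdhd*. That gave 105 of the 17226 genes listed in any table, 92 of them nuclear and 13 on mitochondrial DNA. Single islet cells were captured with the 10X Genomics Chromium 3′ assay, which counts unique molecular identifiers (UMIs), 1 per captured RNA molecule. The mice were C57/Bl6, and *Taf4*, which encodes a subunit of the general transcription factor TFIID, was removed in adult beta cells by an insulin-driven Cre-ERT2 acting on floxed alleles after tamoxifen. The library called WT came from 300 islets of 1 mouse, labelled wild type and given in the study's text as *Taf4*+/+. The TAF4 KO libraries were taken 1 week and 5 weeks after inactivation, each from 300 islets pooled from 2 mice. Since Cre acts in beta cells, native alpha and delta cells of the mutants were not the targeted cells. In the study's lineage tracing, most glucagon-expressing cells inside mutant islets at a later time derived from beta cells. The alpha class of the mutants may thus hold former beta cells, which the rule does not tell apart. Nor does the rule tell a beta cell that kept *Taf4* from one that lost it. All cells were sorted live.

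Oxidative phosphorylation passes electrons from NADH through complex I, or from succinate through complex II, to complex III, by cytochrome c to complex IV and so to oxygen, and the proton gradient built on the way drives ATP synthase, complex V. Complexes I, III, IV and V combine subunits made in the cytosol from nuclear genes with a few made inside the mitochondrion, while complex II and cytochrome c are nuclear alone. In beta cells the ATP made by this chain closes potassium channels of the plasma membrane and couples glucose to insulin release. By complex, the 92 nuclear genes comprised 38 named for complex I and 8 of its assembly factors, 4 for complex II, 9 for complex III, 16 for complex IV, 16 for complex V and 1 cytochrome c gene. *Ndufa4* was grouped with complex I by its symbol, although its protein is now assigned to complex IV. The mitochondrial genes comprised 7 of complex I, 1 of complex III, 3 of complex IV and 2 of complex V.

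Levels were given as CPM, a gene's UMIs per 1000000 UMIs summed over the cells of a class in a library. Beta cells were barcodes with at least 20% of UMIs from *Ins2* and under 3% from *Gcg*, alpha cells had at least 15% from *Gcg*, and delta cells at least 5% from *Sst*. At 1 week the minima were 5%, 8% and 1.5% in barcodes of 5000 UMIs or more. The beta class held 8271 WT cells, 562 cells at 1 week and 5685 cells at 5 weeks. The alpha class held 2815, 175 and 3322 cells, and the delta class 621, 38 and 1443 cells, in the same order. The classes could overlap: 2 WT cells, 1 cell at 1 week and 202 cells at 5 weeks passed more than 1 limit. Of those at 5 weeks, 128 were beta and delta and 74 alpha and delta. The delta class also held RNA of beta markers: the 12 beta markers summed to 113031 CPM in WT delta cells and 149935 CPM in those at 5 weeks, against 160616 and 118636 CPM for the 7 delta markers. Of these beta sums *Iapp* gave 55555 and 39273 CPM and *Ins2* 42954 and 106098 CPM. At 1 week the beta sum was 54575 CPM, with 44626 CPM from *Iapp* and 8561 CPM from *Ins2*. The sums therefore need not come from beta cells as a whole. A hormone can fill most of a cell's UMIs, so the sums and the main counts are also given with 8 hormone genes (*Ins1*, *Ins2*, *Gcg*, *Sst*, *Ppy*, *Pyy*, *Iapp* and *Ttr*) left out of the total.

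With 1 library per condition there was no replicate, and no test between conditions was possible. Genotype, animal and library cannot be told apart. Intervals in parentheses are exact 95% intervals that cover counting error only. The libraries also differed in ways that touch every value. The WT library, labelled male, held 17357 *Xist* UMIs and 0 UMIs of the Y-linked genes, while the mutant libraries held 17 and 11 *Xist* UMIs and 4267 and 3476 UMIs of those genes. By these RNAs the WT library reads as female and the mutant libraries as male. Sex therefore cannot be told apart from genotype either. *Taf4* itself was at 4.68 CPM in WT beta cells (3.68 to 5.86), 7.53 CPM at 1 week (6.21 to 9.06) and 3.54 CPM at 5 weeks (2.88 to 4.31), and a 3′ tag that may lie outside the deleted part does not check the deletion. The beta cells held a median of 1656 UMIs in WT, 24754.5 UMIs at 1 week and 3868 UMIs at 5 weeks. No WT or 5-week barcode passed 14.9% mitochondrial UMIs, whereas at 1 week 447 of 2295 barcodes had 15% or more. WT and 5 weeks shared 33 barcodes, 29 of them within a class in both, WT and 1 week shared 2, and the mutant libraries shared 5. The 10 acinar markers, genes of the digestive exocrine pancreas, summed to 4971 CPM in WT beta cells, 15.9 CPM at 1 week and 573 CPM at 5 weeks, and to 10948, 7.52 and 1552 CPM in alpha cells.

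Sequence is shown for the promoters of genes of 2 isoform families whose shares differed between libraries. *Atp5g1*, *Atp5g2* and *Atp5g3* encode the same mature c subunit of the ATP synthase ring behind different import signals, and *Cox6a1* is the partner of *Cox6a2*. Each stretch runs 5′ to 3′ from 250 bases before to 50 bases after the start that the RefSeq table uses on GRCm38.p6 (mm10), all on the minus strand. For *Atp5g3* and *Atp5g1* that start lies inside the annotated span of the gene, so the window shows an internal start and not the outermost. Capitals mark matches, on either strand, to the GC-rich motif of NRF1 or to CCGGAAG, an ETS motif. NRF1 and the ETS factor GABP are known regulators of nuclear genes for the respiratory chain.
Atp5g1 (chr11:96075582-96075881): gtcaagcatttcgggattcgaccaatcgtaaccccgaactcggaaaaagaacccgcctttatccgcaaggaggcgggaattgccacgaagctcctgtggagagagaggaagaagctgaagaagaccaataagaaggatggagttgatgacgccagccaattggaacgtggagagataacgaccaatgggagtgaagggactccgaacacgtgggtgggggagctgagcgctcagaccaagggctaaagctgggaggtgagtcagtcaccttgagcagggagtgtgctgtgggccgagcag
Atp5g2 (chr15:102670998-102671297): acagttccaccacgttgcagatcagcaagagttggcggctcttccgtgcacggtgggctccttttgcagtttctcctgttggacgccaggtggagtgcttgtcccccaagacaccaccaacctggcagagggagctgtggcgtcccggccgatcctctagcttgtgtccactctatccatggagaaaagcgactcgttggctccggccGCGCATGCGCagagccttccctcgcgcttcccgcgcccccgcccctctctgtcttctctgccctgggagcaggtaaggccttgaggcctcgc
Atp5g3 (chr2:73911277-73911576): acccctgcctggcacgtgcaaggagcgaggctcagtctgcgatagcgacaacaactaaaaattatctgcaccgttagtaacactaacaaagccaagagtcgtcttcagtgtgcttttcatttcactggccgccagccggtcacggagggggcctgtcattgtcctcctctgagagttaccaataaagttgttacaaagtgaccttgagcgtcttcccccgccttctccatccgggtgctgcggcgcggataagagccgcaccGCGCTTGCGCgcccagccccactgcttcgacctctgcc
Cox6a1 (chr5:115348909-115349208): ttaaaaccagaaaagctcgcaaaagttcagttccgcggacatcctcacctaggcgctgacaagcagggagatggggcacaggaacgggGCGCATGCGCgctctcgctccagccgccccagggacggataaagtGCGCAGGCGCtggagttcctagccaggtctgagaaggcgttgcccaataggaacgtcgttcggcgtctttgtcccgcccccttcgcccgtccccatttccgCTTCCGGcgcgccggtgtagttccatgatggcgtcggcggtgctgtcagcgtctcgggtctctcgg
*Atp5g1* held neither motif in this window, *Atp5g2* and *Atp5g3* held 1 NRF1 match each, and *Cox6a1* held 2 NRF1 matches and 1 ETS match. The table had no entry for *Cox6a2*.

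Promoters were found for 75 nuclear members, 80 stretches in all. Both strands were searched and a base could count toward more than 1 motif. The NRF1 motif stood in 23.8% of them, against 4.60% of all 32851 promoters and 12.5% of the 6208 promoters of genes with at least 100 UMIs in WT beta cells. The ETS motif stood in 22.5%, against 8.86% of all and 20.01% of those of expressed genes, close to the members' share. A YY1 motif stood in 7.5%, against 0.852% and 2.59%, and TATAAA, the TATA box, in 8.75%, against 13.6% and 6.70%. A match describes letters and is not a bound site.

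In WT beta cells the nuclear genes together held 13149 CPM (13093 to 13205) and the mitochondrial genes 34242 CPM (34152 to 34333), a ratio of 2.60. *Cox8a*, a small subunit of complex IV, was the most abundant nuclear member at 683 CPM. Next came *Atp5l* of the membrane part of ATP synthase at 435 CPM, *Atp5g2* at 422 CPM, *Uqcrb*, the ubiquinone-binding subunit of complex III, at 411 CPM and *Atp5g1* at 402 CPM. The 10 most abundant held 30.5% of the nuclear UMIs. All 92 nuclear genes had a UMI in WT beta cells, but 8 had fewer than 100. Assembly factors were scarce, with *Ndufaf1* at 3.12 CPM and *Ndufaf5* at 2.06 CPM.

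WT alpha and delta cells held more of both parts on the scale of all UMIs than WT beta cells, but less once hormones were left out. The nuclear sum was 18195 CPM in alpha cells and 19805 CPM in delta cells. Without hormones it was 41223 CPM in beta, 33264 CPM in alpha and 29580 CPM in delta cells, and the mitochondrial sum was 107350, 84676 and 80772 CPM. The order of the classes thus turned with the scale, and hormones filled 68.1% of UMIs in WT beta cells, 45.3% in alpha and 33.0% in delta cells.

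Between the beta and alpha cells of the WT library, *Cox6a2*, the isoform of complex IV subunit 6a known from heart and skeletal muscle, stood furthest apart. Without hormones it was at 459 CPM in beta cells and 25.1 CPM in alpha cells, a log2 ratio of 4.20 (3.70 to 4.74). *Cox5a*, a nuclear subunit of complex IV, was also higher in beta cells, with 435 and 137 CPM (log2 1.67). Of 85 nuclear members with enough UMIs, 20 were higher in beta cells by 1.5-fold or more, near the 27.9% of all genes, and 1 (*Atp5s*) was lower, against 7.7% of all genes. At 5 weeks 21 of 87 were higher (21.9% of all genes) and 0 lower (14.1%), and at 1 week 30 of 87 were higher (32.7%) and 1 lower (9%). These genes were chosen after their values were seen. At 5 weeks *Cox6a2* was at 38.1 CPM in beta and 5.36 CPM in alpha cells on this scale. The beta markers summed to 47374 CPM in WT alpha cells against 679172 CPM in WT beta cells, on the scale of all UMIs, and the part of such RNA in the alpha values was not tested.

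**Figure D1:**
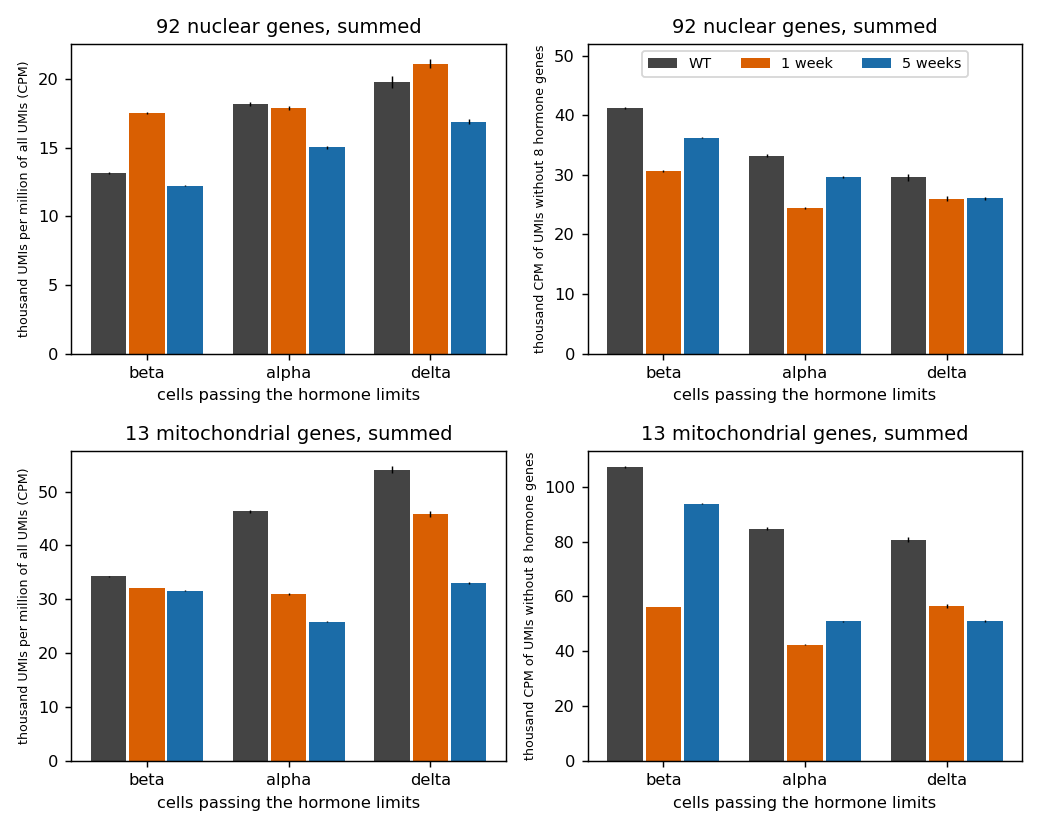
Summed level of the 92 nuclear (top) and 13 mitochondrial (bottom) genes in beta, alpha and delta cells, in units of 1000 CPM of all UMIs (left) and of UMIs without 8 hormone genes (right). Bars are 1 library each and whiskers are 95% counting intervals; the 1-week nuclear bar of beta cells stands above WT on the left (17551 against 13149 CPM) and below it on the right (30691 against 41223 CPM).

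At 5 weeks after *Taf4* inactivation, beta cells held slightly less of both parts than WT beta cells, while single genes stood far apart. The nuclear sum was 12220 CPM (12179 to 12261), a log2 ratio of -0.11 to WT (-0.11 to -0.10), and -0.18 without hormones, but 0.075 where cells of 1000 to 2000 UMIs were compared on the scale of all UMIs. The mitochondrial sum was 31581 CPM, a log2 ratio of -0.12 (-0.12 to -0.11), and -0.20 without hormones, but 0.053 in cells of 2000 UMIs or more and 0.40 in cells of 1000 to 2000 UMIs, both on the scale of all UMIs. Without hormones, cells of 1000 to 2000 UMIs held 3.91% nuclear member UMIs in WT and 2.90% at 5 weeks, and 12.1% and 11.2% mitochondrial UMIs, so that both were below WT there. Leaving hormones out moved every ratio of this comparison by -0.079. Over the 9202 genes that had 3 or more UMIs in each library and 100 or more in their sum, the median was 0.18, and 0.10 without hormones.

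Of the 87 nuclear members that passed this minimum, 8 were higher by 1.5-fold or more and 4 lower, below the shares over all genes of 21.5% higher and 10.1% lower. Without hormones 7 were higher and 5 lower, against 17.3% and 12.2%. Their median log2 ratio was -0.00, and 55 of the 87 lay below the median of all genes. Complex IV leaned lower, with 10 of its 12 measured nuclear members below WT and a summed level of 2446 against 3023 CPM. Complex II, which feeds electrons from succinate, leaned the other way with 4 of 4 above WT, but none by 1.5-fold. Of the 8 assembly factors of complex I, 6 were above WT and 3 of them past 1.5-fold. Over all genes tested, 5819 of 9202 were above WT and 3383 below.

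*Cox6a2* (chr7:128205435-128206366, mm10) was the lowest of all members. Its level was 146 CPM in WT beta cells, from 2350 UMIs, 35.1 CPM at 1 week from 526 UMIs, and 12.8 CPM at 5 weeks from 359 UMIs. The log2 ratio to WT at 5 weeks was -3.51 (-3.68 to -3.35), and it lay between -3.78 and -3.50 under every alternative of scale, gate and depth that was run. At 1 week it was -2.06 (-2.20 to -1.93), and -2.90 without hormones. The 5-week library was the lowest and the WT library the highest on both scales.

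Also lower in beta cells at 5 weeks were *Ndufb2*, an accessory subunit of complex I (105 to 57.6 CPM, log2 -0.87), and *Cox7a2l*, which helps to join complexes III and IV into supercomplexes (219 to 134 CPM, log2 -0.71). *Ndufv3* and *Ndufs8*, an accessory and an iron-sulphur subunit of complex I, had log2 ratios of -0.58 and -0.50, short of 1.5-fold.

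The 6 highest members at 5 weeks in beta cells were mostly scarce genes. *Ndufaf1*, an early assembly factor of complex I, had 3.12 CPM in WT beta cells and 6.61 in those of 5 weeks (log2 1.09, interval 0.63 to 1.57). *Ndufaf4*, another assembly factor, was at 12.9 and 25.3 CPM (log2 0.97). *Ndufs1*, the largest iron-sulphur subunit of complex I, was at 10.4 and 19.2 CPM (log2 0.89), and *Ndufa9*, which sits where the arms of complex I meet, at 8.10 and 14.8 CPM (log2 0.87). *Uqcrc2*, a core protein of complex III, was at 39.8 and 69.4 CPM (log2 0.80). *Atp5f1*, which forms the peripheral stalk of ATP synthase, was the only abundant gene among them, with 150 and 254 CPM (log2 0.76, interval 0.69 to 0.83).

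One week after inactivation the nuclear sum in beta cells was 17551 CPM (17484 to 17618), a log2 ratio to WT of 0.42, but -0.43 without hormones. Hormones filled 42.8% of the UMIs of these cells against 68.1% in WT, and leaving them out moved every ratio by -0.84. The median of all genes was 1.15, and 0.31 without hormones, so that the ratio of the nuclear sum lay 0.74 below that median on either scale. The members' own median was 0.51, and -0.33 without hormones. Relative to the median of all genes, 68 of 87 nuclear members were lower and 19 higher. By 1.5-fold, 37 of 87 were higher and 3 lower, against 76.3% and 3.8% of all genes, and without hormones 13 were higher and 25 lower, against 35.3% and 13.8%.

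*Ndufa9* was the highest member at 1 week, with 8.10 CPM in WT beta cells against 50.8 (log2 2.65, interval 2.38 to 2.93, and 1.81 without hormones). Then followed *Ndufaf5*, a complex I assembly factor, at 2.06 and 9.40 CPM (log2 2.19), and *Ndufs1* at 10.4 and 43.6 CPM (log2 2.07). *Ndufa6*, an accessory subunit of complex I, was at 82.2 and 307 CPM (log2 1.90), *Sdha*, the catalytic flavoprotein of complex II, at 39.5 and 142 CPM (log2 1.85) and *Uqcrc2* at 39.8 and 137 CPM (log2 1.79). Without hormones all 6 had log2 ratios of 0.94 or more. Besides *Cox6a2*, low ratios were found for *Atp5g1* (402 to 253 CPM, log2 -0.67), *Ndufs8* (-0.53), *Uqcrb* (411 to 288 CPM, log2 -0.51) and *Ndufa4* (204 to 143 CPM, log2 -0.51).

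Both mutant libraries were compared with the same WT library, so their ratios are set side by side and are not independent. *Cox7a2l* lay on opposite sides, 605 CPM at 1 week against 219 CPM in WT (log2 1.47, and 0.62 without hormones) and 134 CPM at 5 weeks.

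**Figure D2:**
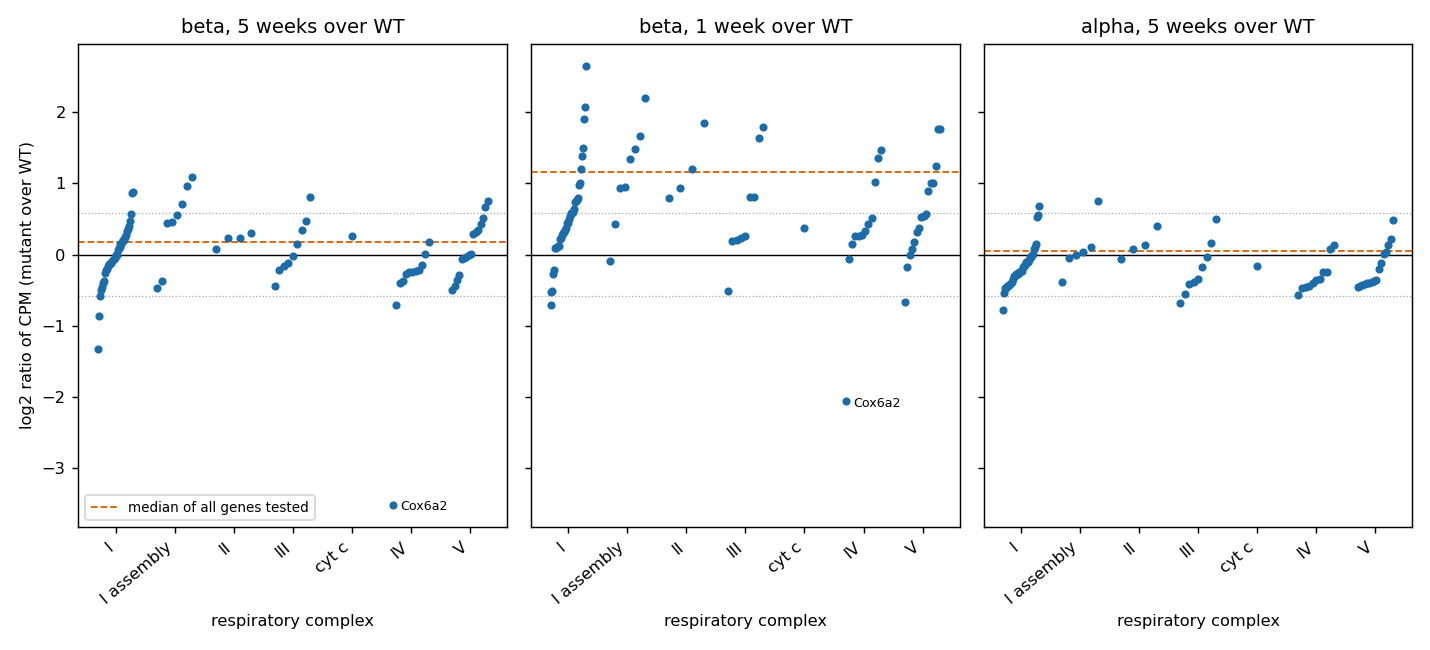
Log2 ratio of CPM (mutant over WT, scale of all UMIs) for each nuclear member that passed the UMI minimum, grouped by complex, in beta cells at 5 weeks and 1 week and in alpha cells at 5 weeks. Each point is a gene, dotted lines mark 1.5-fold and the dashed line the median of all genes (0.18, 1.15 and 0.06); *Cox6a2* lies lowest in beta cells at both times, and without hormones all points of the 1-week panel move by -0.84.

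The ratios moved with transcript length, for these genes as for others. Of the 92 nuclear members, 87 had a length, the longest transcript of the gene in the annotation used, with a median of 955 bases. In beta cells at 1 week the median log2 ratio was 0.21 over the 28 members of up to 700 bases and 0.88 over the 16 members of 1000 to 1500 bases, while all genes of those lengths had medians of 0.33 and 0.89. At 5 weeks the same bins gave -0.18 and 0.22, against -0.22 and 0.18 over all genes. Above 1500 bases at 1 week the members (medians of 0.81 and 0.79) lay below the other genes (1.27 and 1.22). *Ndufs1* and *Sdha*, among the highest members above, have transcripts of 2918 and 2900 bases and *Cox6a2* one of 658 bases. Measured complex IV genes ran from 505 (*Cox6b1*) to 1147 bases (*Cox7a2l*), and complex II genes from 1142 (*Sdhb*) to 3171 bases (*Sdhc*). The part of length in the ratios of these genes and complexes was not tested.

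The isoform families differed in make-up between libraries. *Cox6a2* gave 64.4% of the UMIs of the 6a pair in WT beta cells (62.8 to 66.0%), 14.5% at 1 week (13.4 to 15.7%) and 15.6% at 5 weeks (14.1 to 17.1%). In WT alpha cells it gave 10.6% and in WT delta cells 17.2%. The ubiquitous *Cox6a1* was at 81.0 CPM in WT beta cells, 207 CPM at 1 week and 69.6 CPM at 5 weeks, so that at 5 weeks the level of *Cox6a2* was lower while that of *Cox6a1* was not higher. A share does not depend on whether hormones are counted.

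At least 1 *Cox6a2* UMI was found in 22.9% of WT beta cells, 31.1% of those at 1 week and 5.88% at 5 weeks. After each cell was thinned to 1000 UMIs, which left out 502 WT and 207 5-week cells, the shares were 13.4% (12.7 to 14.2%), 2.85% (1.64 to 4.58%) and 1.26% (0.981 to 1.59%). In alpha cells, which held little of it in WT, the thinned shares were 1.10% in WT (median 765 UMIs before thinning), 3.43% at 1 week and 0.266% at 5 weeks. The WT alpha share rested on 7 cells of 639 (0.442 to 2.24%), because 2176 cells were too shallow to thin. The thinned 5-week share in beta cells lay within that interval, but above that of 5-week alpha cells (0.115 to 0.523%).

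The c subunit genes of ATP synthase also differed in their shares. *Atp5g3* gave 14.6% of the UMIs of its family in WT beta cells, 20.6% at 1 week and 27.2% at 5 weeks, with counting intervals of under 1 percentage point to each side. *Atp5g1* gave 41.7%, 29.8% and 34.8%, and *Atp5g2* 43.7%, 49.6% and 38.0%. In alpha cells *Atp5g3* gave 13.4%, 12.4% and 18.6%, and in delta cells 15.3%, 17.4% and 24.6%. At 5 weeks the *Atp5g3* share stood above WT in each class, and at 1 week it stood below WT in alpha cells. As levels in beta cells, *Atp5g3* was at 141, 175 and 223 CPM in WT, at 1 week and at 5 weeks.

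*Cox7a2l* gave 43.4% of the 7a family's UMIs in WT beta cells, 63.8% at 1 week and 34.1% at 5 weeks, while the muscle form *Cox7a1* gave 0.198% or less in beta cells. In alpha cells *Cox7a2l* gave 32.1%, 61.3% and 39.8%, so the 1-week share was the highest in both classes. The other tissue isoforms were nearly absent. *Cox4i2*, the lung-enriched and oxygen-responsive form, had 1 UMI in WT beta cells and 0 in every other class and library, against 4306 UMIs of *Cox4i1* in WT beta cells. *Cox6b2* and *Cox7b2* had at most 6 and 5 UMIs in any class. *Ndufa4l2*, which is known to be induced by low oxygen, had 1 UMI in WT beta cells, 30 at 1 week in 29 cells and 12 at 5 weeks, or 0.0306%, 1.38% and 0.230% of the pair with *Ndufa4*.

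**Figure D3:**
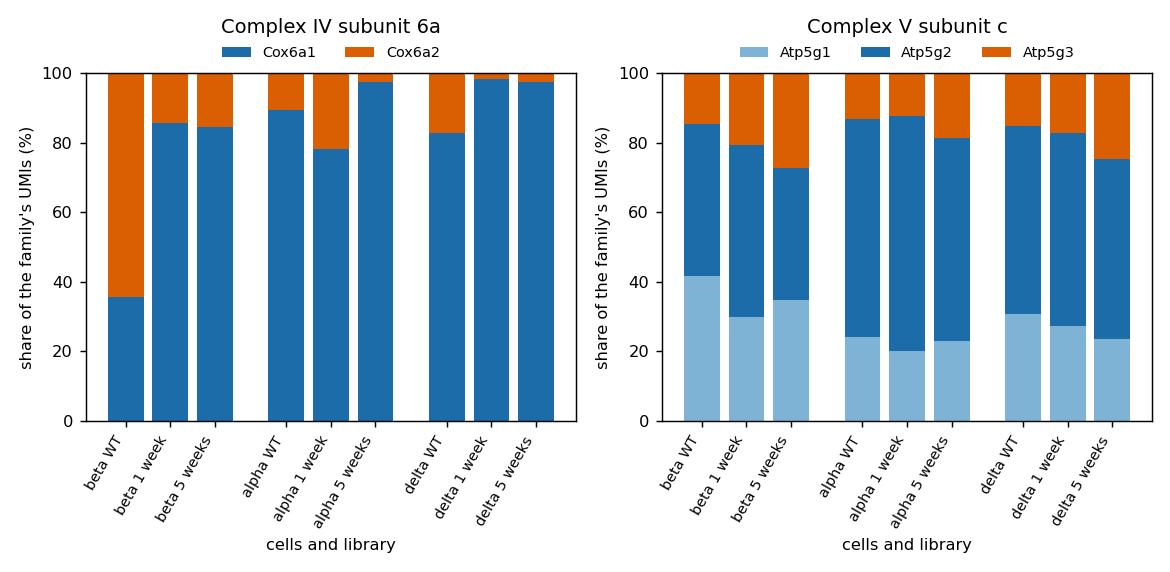
Share of UMIs (%) that each gene gave to the complex IV subunit 6a pair (left) and the complex V subunit c family (right) in beta, alpha and delta cells of each library. Each stacked bar sums to 100%; *Cox6a2* holds 64.4% of the pair in WT beta cells against 14.5% and 15.6% in the mutant libraries, and *Atp5g3* stands at 14.6%, 20.6% and 27.2% in beta cells.

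The mitochondrial genes are transcribed as long strands from both sides of the circular genome and cut apart, so their levels differ by processing and stability. Per kilobase of gene, WT beta cells held most of *mt-Atp6* (8850 CPM per kilobase) and the complex IV subunit genes *mt-Co2* (7700) and *mt-Co3* (7385), and least of *mt-Nd6* (56.1), which is coded on the other strand. *mt-Atp8* overlaps *mt-Atp6* and *mt-Nd4l* overlaps *mt-Nd4* on shared RNAs, so counts may be split between them.

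In beta cells at 5 weeks, 6 mitochondrial genes were above WT and 7 below on the scale of all UMIs, within a range from -0.63 to 0.57. *mt-Co1*, the catalytic subunit of complex IV and the most abundant RNA of the set, had 8043 CPM in WT beta cells and 5395 in those of 5 weeks (log2 -0.58, interval -0.59 to -0.57). *mt-Co3* lay at -0.39 and *mt-Nd6* at -0.63. The RNA shared by the ATP synthase subunits stood higher, with *mt-Atp8* at 126 and 187 CPM (log2 0.57) and *mt-Atp6* at 6027 and 6978 CPM (log2 0.21), as did *mt-Co2* (0.21), *mt-Nd3* (0.32), *mt-Nd5* (0.21) and *mt-Nd2* (0.12). The remaining genes, *mt-Cytb*, *mt-Nd4l*, *mt-Nd1* and *mt-Nd4*, lay between -0.19 and -0.04. By sum, mitochondrial complex IV was lower, with 19100 and 15932 CPM, and mitochondrial complex V higher, with 6153 and 7165 CPM.

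At 1 week the mitochondrial genes of beta cells spread much further, from -2.45 to 1.48. *mt-Nd2* had 769 CPM in WT and 2152 at 1 week (log2 1.48, and 0.64 without hormones), and *mt-Nd1* at 672 and 1347 CPM (log2 1.00, and 0.16 without hormones). *mt-Atp8* was at 126 and 23.1 CPM (log2 -2.45, interval -2.61 to -2.28), and *mt-Nd4l* at 506 and 203 CPM (log2 -1.32). *mt-Co2*, *mt-Atp6*, *mt-Nd6* and *mt-Cytb* lay between -0.94 and -0.72, and *mt-Co3* at -0.09. *mt-Nd5* (0.65), *mt-Nd4* (0.54), *mt-Co1* (0.36) and *mt-Nd3* (0.12) were above WT, but below it without hormones. The sum, 32097 CPM, was close to WT on the scale of all UMIs (log2 -0.09) and lower without hormones (-0.94), but higher as a mean over cells (0.28) or in cells of 2000 UMIs or more (0.13).

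The same genes lay at the ends in the other classes at 1 week. In alpha cells *mt-Nd2* was highest (log2 0.81) and *mt-Atp8* lowest (-3.34, from 214 to 21.2 CPM), and in delta cells *mt-Nd2* lay at 1.32 and *mt-Atp8* at -2.42. At 5 weeks *mt-Nd6* and *mt-Co1* were the lowest 2 of 13 in all 3 classes. The WT library is shared by these comparisons, and the part of free RNA, which the classes of a library share, was not tested.

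**Figure D4:**
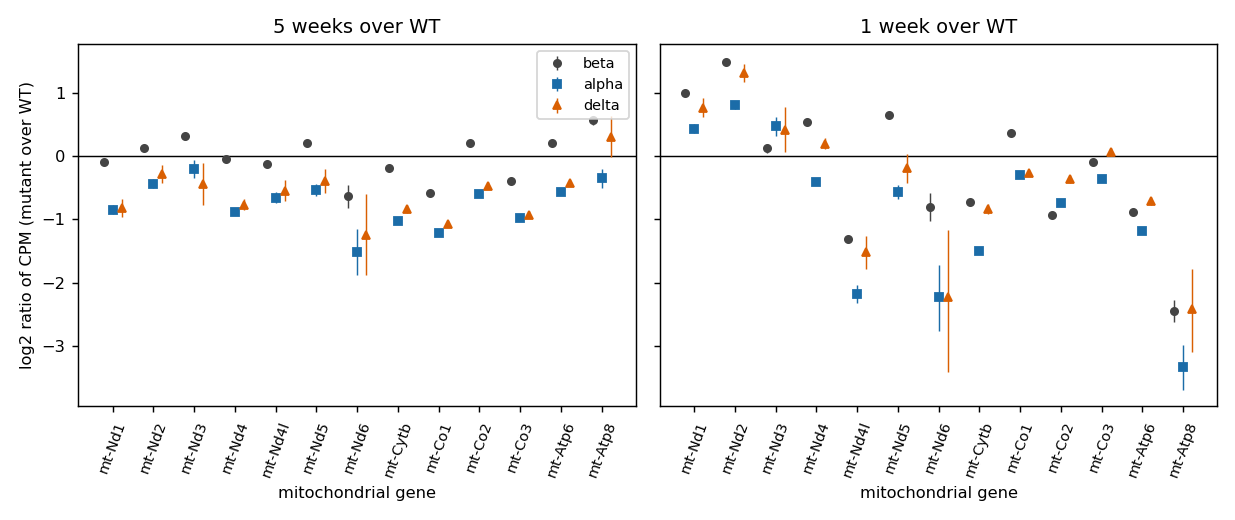
Log2 ratio of CPM (mutant over WT, scale of all UMIs) for each of the 13 mitochondrial genes at 5 weeks and 1 week in beta, alpha and delta cells, with 95% counting intervals. At 5 weeks all 13 lie below WT in alpha cells and 6 above in beta cells; at 1 week *mt-Nd2* stands highest and *mt-Atp8* lowest in each class, and without hormones *mt-Nd3*, *mt-Nd4*, *mt-Nd5* and *mt-Co1* of beta cells move from above to below WT.

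In alpha cells the mitochondrial part was lower at 5 weeks than in WT. At 5 weeks the mitochondrial sum was 25863 CPM in alpha cells against 46317 CPM in WT, a log2 ratio of -0.84 (-0.85 to -0.83), and the nuclear sum 15023 against 18195 CPM, a log2 ratio of -0.28 (-0.29 to -0.26). There were 2.55 mitochondrial UMIs for each nuclear one in WT alpha cells and 1.72 at 5 weeks, against 2.60 and 2.58 in beta cells. All 13 mitochondrial genes were below WT in alpha cells, from -0.20 for *mt-Nd3* to -1.22 for *mt-Co1* and -1.52 for *mt-Nd6*. Of them 8 passed 1.5-fold, against 6.53% of all genes, and without hormones 6 did, against 4.28%. Beta markers summed to 47374 CPM in WT alpha cells and 76585 CPM at 5 weeks, and delta markers to 1473 and 5983 CPM. The part of this RNA, or of any former beta cells in the class, in these ratios was not tested. The direction of both sums held under every alternative run, from -0.87 to -0.22 for the mitochondrial and from -0.29 to -0.17 for the nuclear sum.

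Among nuclear genes of alpha cells at 5 weeks, 2 of 84 were higher by 1.5-fold (*Ndufaf4*, log2 0.76, and *Ndufs1*, 0.69) against 12.4% of all genes, and 2 were lower (*Ndufv3*, -0.78, and *Uqcrb*, -0.68) against 6.53%. Without hormones 6 were higher and 1 lower, against 17.3% and 4.28%. *Ndufa10*, an accessory subunit of complex I, came next among the highest (0.55), and *Cox5b*, the zinc-binding subunit of complex IV, next among the lowest (426 to 287 CPM, log2 -0.57). Below WT lay 62 of the 84, and the median was -0.24 against 0.06 over all genes. *Ndufv3* and *Uqcrb* were also lower than WT by 1.5-fold in alpha cells at 1 week.

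At 1 week the alpha cells held 17897 CPM of nuclear RNA for these genes, a log2 ratio of -0.02 to WT (0.018 in cells of 2000 UMIs or more) and -0.44 without hormones, and 30977 CPM of mitochondrial RNA, a log2 ratio of -0.58 (0.13 in cells of 2000 UMIs or more, where WT had 27 cells). Of 82 nuclear genes 19 were higher and 11 lower, against 52.3% and 9.18% of all genes, and without hormones 10 and 34, against 32% and 18%. *Ndufaf4* (12.9 to 59.4 CPM, log2 2.20), *Cox6a2* (13.7 to 47.3 CPM, log2 1.79) and *Cox7a2l* (180 to 618 CPM, log2 1.78) were highest. *Ndufs8* (93.9 to 30.6 CPM, log2 -1.62), *Ndufa11*, which stabilises the membrane arm of complex I (251 to 98.6 CPM, log2 -1.35), and *Uqcrb* (514 to 234 CPM, log2 -1.14) were lowest. As class sums, *Cox6a2* was therefore at a similar level in alpha and beta cells of this library, 47.3 (176 UMIs) and 35.1 CPM. Most of these UMIs came from few cells. A *Cox6a2* UMI was found in 37 of 175 alpha and 175 of 562 beta cells, and the top 10% of cells held 78.4% and 66.9% of the UMIs.

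In delta cells both sums were lower at 5 weeks than in WT. The 10 alpha markers summed to 4365 CPM in WT delta cells, 823 CPM at 1 week and 30545 CPM at 5 weeks, and with the beta markers given above their part in the delta values was not tested. The mitochondrial sum was 54079 CPM in WT, 45846 CPM at 1 week and 33003 CPM at 5 weeks, with log2 ratios to WT of -0.24 and -0.71. The nuclear sum was 19805, 21132 and 16911 CPM, with ratios of 0.09 at 1 week (-0.18 without hormones) and -0.23 at 5 weeks. At 5 weeks 2 of 77 nuclear genes were higher, *Sdha* (34.0 to 60.9 CPM, log2 0.84, from 15 WT UMIs) and *Sdhd*, a membrane anchor of complex II (log2 0.65), against 13.3% of all genes, and 5 were lower, against 7.36%. Without hormones 2 were higher (15.1%) and 4 lower (5.88%). The lowest were *Uqcrb* (-0.76), *Ndufa7* (-0.72) and *Ndufb7* (-0.71), the latter pair accessory subunits of complex I, and *Atp5f1* (0.51) was next highest after *Sdhd*. *Uqcrb* was thus below WT in each class at 5 weeks, by 1.5-fold in alpha and delta cells. At 1 week, from 38 delta cells, 11 of 69 were higher and 5 lower, against 37.7% and 8.51%, and without hormones 8 and 9, against 26.1% and 15.2%.

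The mitochondrial share depended on how deep a barcode was, and depth differed between libraries. WT beta cells of 1000 to 2000 UMIs held 3.91% mitochondrial UMIs and those of 2000 to 5000 UMIs 2.95%, while at 5 weeks these bins held 5.17% and 3.40%. On this scale the 5-week share of beta cells was above WT within a bin and below it over all cells. Without hormones the bins held 12.1% and 9.49% in WT and 11.2% and 9.53% at 5 weeks, so that 5 weeks was below WT in the first and close to it in the second. Under 1000 UMIs the 5-week share without hormones was above WT, with 15.4% (207 cells) against 13.5% (502 cells). From 5000 to 10000 UMIs it was also above, with 9.27% (1503 cells) against 8.56% (26 cells). Hormones filled 67.6% of UMIs in WT beta cells of 1000 to 2000 UMIs and 54.0% at 5 weeks. *Malat1*, a nuclear RNA, was at 19470 CPM in 5-week beta cells of 1000 to 2000 UMIs and at 4875 CPM in WT ones. In alpha cells of 1000 to 2000 UMIs the share was 3.90% in WT (612 cells) and 2.69% at 5 weeks (1535 cells), and in delta cells 4.26% (66 cells) and 3.36% (819 cells), so that in these classes the 5-week value was lower within the bin too. Without hormones the values were 7.35% and 5.04% in alpha cells and 6.38% and 4.91% in delta cells. In alpha cells without an acinar UMI the mitochondrial sum was 42574 CPM in WT, from 27 cells, and 28627 CPM at 5 weeks, from 284 cells. In beta cells without one it was 31602 and 31762 CPM.

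**Figure D5:**
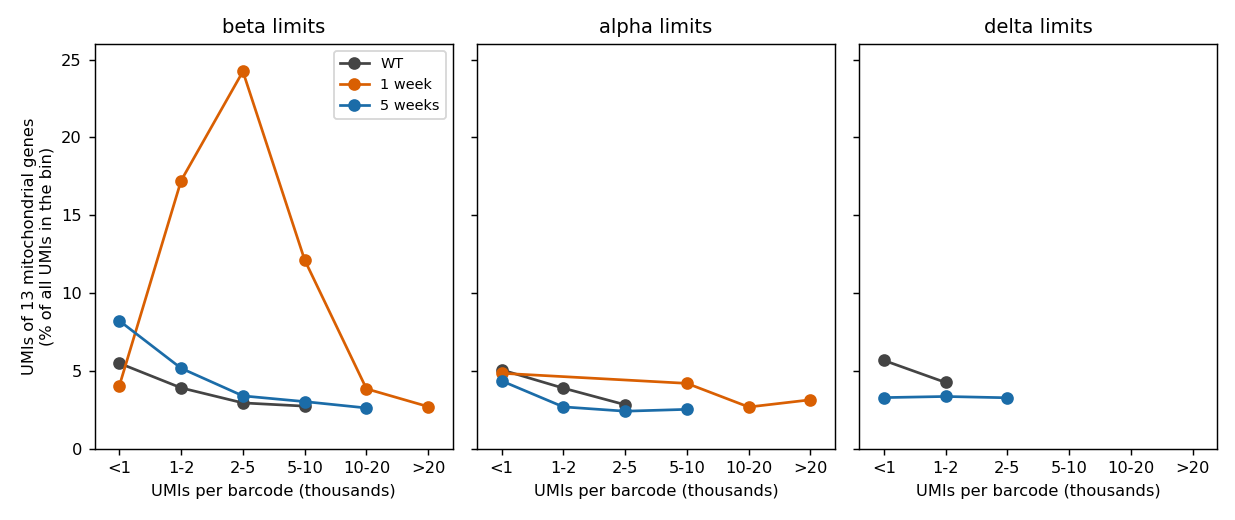
Share of UMIs from the 13 mitochondrial genes (%) against UMIs per barcode (bins, in units of 1000) for barcodes passing the beta, alpha and delta limits, with no UMI minimum at 1 week. Each line is a library; in the 1000 to 2000 bin of beta cells WT stands at 3.91%, 5 weeks at 5.17% and 1 week at 17.2%, and in that bin of alpha cells 5 weeks (2.69%) lies below WT (3.90%). Without hormones the beta bin holds 12.1% in WT and 11.2% at 5 weeks.

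The 1-week beta cells were not uniform. Of the 562 cells, 328 held *Ddit3*, a transcription factor gene of the stress response, at 1000 CPM or more, and 234 held less. Their nuclear sums were 21488 and 12820 CPM, but 31375 and 29400 CPM without hormones, and their mitochondrial sums 22089 and 44121 CPM, or 32253 and 101180 CPM without hormones. Hormones filled 31.5% and 56.4% of the UMIs. *Cox6a2* was at 50.5 CPM in the cells with *Ddit3* and 16.6 CPM in the others, below WT in both. Of the mitochondrial genes *mt-Co1* differed least between these cells (10122 and 10618 CPM) and *mt-Nd3* most (67.7 and 345 CPM). The cells were split by a measured level, so these values are a description of the library.

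Other mitochondrial pathways were read from lists for comparison in beta cells. At 5 weeks, 12 of 77 genes of the mitochondrial ribosome, which translates the 13 mitochondrial messages, were higher by 1.5-fold and 2 lower, with a median of 0.17, against 21.5% higher and 10.1% lower and a median of 0.18 over all genes. Without hormones 9 were higher and 3 lower, against 17.3% and 12.2%. Of 13 genes of the citrate cycle 4 were higher and 0 lower, led by *Fh1*, fumarase (43.3 to 121 CPM, log2 1.48), and without hormones 1 was higher. For pyruvate entry and shuttles 5 of 13 were higher and 1 lower (4 and 2 without hormones), among them *Got1* (log2 1.17) and *Mpc1*, of the pyruvate carrier (71.7 to 125 CPM, log2 0.80). Protein import had 2 of 23 higher and 0 lower (1 and 0 without hormones).

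Carriers and uncoupling had 3 of 8 higher on either scale, among them *Slc25a4*, the ADP/ATP carrier (120 to 199 CPM, log2 0.73), and *Immt* of the cristae junctions (log2 0.92), and 1 lower, *Ucp2*, an uncoupling protein of the inner membrane. Over all genes at 5 weeks 21.5% were higher and 10.1% lower, and 17.3% and 12.2% without hormones. *Ucp2* was at 36.6 CPM in WT, 19.2 CPM at 1 week and 8.83 CPM at 5 weeks, with log2 ratios of -0.93 (-1.77 without hormones) and -2.05 (-2.27 to -1.83; -2.13 without hormones). Of 10 regulators with enough UMIs 2 were higher, *Gabpb1* (log2 0.95) and *Tfam*, which packages and transcribes mitochondrial DNA (10.0 to 17.8 CPM, log2 0.83), and 0 lower. The higher count was near the 21.5% of all genes, and both counts were the same without hormones. *Nrf1* had a log2 ratio of -0.25 (-0.66 to 0.17) and *Ppargc1a* had 22 and 36 UMIs. At 1 week 11 of 12 regulators were higher, against 76.3% of all genes, and 7 without hormones, against 35.3%, with a median of 1.67 against 1.15 over all genes and 0.83 against 0.31 without hormones, whereas the ribosome list (0.72, and -0.12 without hormones) lay below the median of all genes as the nuclear respiratory genes did. *Vdac1*, the outer membrane channel, had 36.3 CPM in WT and 244 at 1 week (log2 2.74, and 1.90 without hormones), and 34.3 CPM at 5 weeks.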

How the data were processed

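The deposited tables hold UMI counts per gene and cell, whole numbers that the authors made with Cell Ranger 3.1 on mm10 and loaded in Seurat 3.1.4, versions as listed in the submitters' processing notes. For WT alone the study describes removing doublets and scaling down to 12000 cells. No doublet caller was run here. The WT and 5-week barcodes held at most 1489 and 1999 genes, the 1-week barcodes up to 5986. Library totals were 19472212 UMIs (WT), 23131247 (1 week) and 39408284 (5 weeks).

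Counts were summed over the cells of a class and divided by their total. Levels carry exact Poisson intervals, ratios conditional binomial and shares Clopper-Pearson intervals, all at 95%. The members and lists were chosen with earlier results of these data known. A ratio was read for genes with at least 100 UMIs over both libraries and at least 3 in each, and past 1.5-fold it was counted as higher or lower. Named were the 6 highest and 6 lowest nuclear members in beta cells at each time, 3 and 3 in alpha cells at each time and in delta cells at 5 weeks, all mitochondrial members, the 5 most abundant in WT beta cells, isoform families and *Taf4*. An item that this rule names is not reported here. In simulated counts for beta cells at 5 weeks (9007 genes, 200 changed 2-fold), 93.2% of intervals of changed genes held the true ratio and 98.4% of changed genes were called. For 1 week (8116 genes) the values were 98.4% and 100%. The simulated counts varied by counting error alone, which is what the intervals assume. They check the calculation and do not show how well changes between animals or libraries would be found. Promoters came from RefSeq GRCm38.p6, and transcript lengths from an NCBIM37 annotation, used for lengths alone. Python 3.11.15, numpy 2.4.6, scipy 1.17.1 and matplotlib 3.10.9 were used. Alternatives changed the total, the gates, the cells' depth, the weighting of cells and the UMI minimum.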

Additional observations from a re-analysis of the deposited data

Results flagged for a closer look

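The 1-week barcodes under 5000 UMIs were in none of the cell classes compared, apart from the shares by depth, and their share of mitochondrial UMIs stood apart. Over 1415 such barcodes it was 18.0% (17.98 to 18.08%, counting error only), against 3.62% over 11964 WT barcodes and 3.33% over 8838 barcodes at 5 weeks of that depth. Of these 1-week barcodes 405 had 15% or more mitochondrial UMIs, and 0 did in the other libraries, whose tables end just below that share. Their nuclear members held 0.860% of UMIs. Those within the beta limits at 2000 to 5000 UMIs held 24.2% mitochondrial UMIs and 167365 CPM of *Malat1*, a nuclear RNA.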

How the results depend on the processing

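No paired analysis was possible because each condition has 1 library, so no replicate could be left out either. Values below are log2 ratios to WT of the nuclear and then the mitochondrial sum, and counts of nuclear members past 1.5-fold. Except without hormones, the share over all genes was not computed for these settings. The counts therefore show only how the members' own counts moved. Fewer cells or genes enter some alternatives by construction; otherwise the cause was not tested.

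Leaving hormones out gave -0.18 and -0.20 in beta cells at 5 weeks, -0.43 and -0.94 at 1 week (13 higher, 25 lower), -0.17 and -0.73 in alpha cells at 5 weeks (6 higher, 1 lower), -0.44 and -1.0002 at 1 week (10 higher, 34 lower), -0.18 and -0.67 in delta cells at 5 weeks, and -0.18 and -0.52 at 1 week. The nuclear sums of beta and delta cells at 1 week thus changed direction. A mean over cells gave -0.084 and -0.020 in beta cells at 5 weeks, 0.50 and 0.28 at 1 week (1 lower), -0.82 (mitochondrial) in alpha cells at 5 weeks and -0.60 at 1 week, -0.74 in delta cells at 5 weeks, and 0.046 and -0.20 at 1 week. Cells of 2000 UMIs or more gave -0.15 and 0.053 in beta cells at 5 weeks, 0.38 and 0.13 at 1 week (5 lower), -0.24 and -0.22 in alpha cells at 5 weeks (8 higher, 16 lower), and 0.018 and 0.13 at 1 week. The alpha values of this setting rested on 27 WT cells.

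Stricter gates gave -0.13 (mitochondrial) in beta cells at 5 weeks, 0.36 and -0.23 at 1 week, -0.87 (mitochondrial) in alpha cells at 5 weeks, -0.048 and -0.57 at 1 week, -0.19 and -0.80 in delta cells at 5 weeks (1 higher), and -0.28 (mitochondrial) at 1 week. The limits of 200 to 1500 genes and under 15% mitochondrial gave -0.14 and -0.036 in beta cells at 5 weeks. Without cells in more than 1 gate, delta cells gave -0.18 and -0.68 at 5 weeks and -0.27 (mitochondrial) at 1 week. A minimum of 400 UMIs gave 0 higher in alpha and in delta cells at 5 weeks and 12 higher in alpha cells at 1 week, and a minimum of 20 gave 4 higher in delta cells at 5 weeks.

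Chosen after seeing the data, cells of 1000 to 2000 UMIs gave 0.075 and 0.40 in beta cells at 5 weeks (15 higher) on the scale of all UMIs, -0.53 (mitochondrial) in alpha cells, and -0.34 (mitochondrial) in delta cells (10 lower). Also chosen after, leaving out 1-week cells of 15% or more mitochondrial UMIs gave 0.44 and -0.27 in beta cells and -0.28 (mitochondrial) in delta cells. Among the highest and lowest nuclear members named, 0 of 269 ratios reversed, but these genes were picked as the extremes of the same ratios. Mitochondrial genes were not among them, and in beta cells at 1 week *mt-Nd3*, *mt-Nd4*, *mt-Nd5* and *mt-Co1* changed direction without hormones. Not run, for want of 20 cells, were the gene limits at 1 week in each class and 2000 UMIs or more in delta cells.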
